A study of Mus musculus with 2 samples.

Results

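Pim1 and the cell cycle genes Ccnd2, Ccnd3 and Cdk6 were examined in chromatin immunoprecipitation sequencing of STAT5 and STAT3 from T helper 17 (Th17) cells of the mouse, a class of CD4 T cell named for its cytokine IL-17. The 4 genes, of 49997 in the RefSeq table used for names, were followed in fixed windows on the mm9 genome: Pim1 on chromosome 17 from 29600000 to 29660000, Ccnd2 on chromosome 6 from 127040000 to 127140000, Ccnd3 on chromosome 17 from 47610000 to 47760000, and Cdk6 on chromosome 5 from 3310000 to 3560000. These windows held 67 of the 86149 sites found over the genome with either antibody. The STAT5 library, for which antibodies to STAT5A and to STAT5B had been combined, came from cells given IL-2 at 200 IU/ml for 30 minutes. The STAT3 library came from cells given IL-6 at 40 ng/ml for 30 minutes. Both used wild type C57BL/6J cells: sorted naive CD4 T cells had been cultured for 3 days with antibodies to CD3 and CD28, IL-6 at 20 ng/ml, TGF-beta at 2 ng/ml and an antibody to IL-4. An antibody to IL-2 is listed too, but at 100 IU/ml, which is how amounts of the cytokine are given, and the labels do not settle whether IL-2 was blocked in culture or added.

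There was 1 library per antibody, antibody and cytokine differed together, and no input library was analysed here. Every difference below therefore compares these libraries and lacks a replicate check. Each interval is an exact 95% interval that covers counting error only, except those of the corrected ratios described below. The STAT5 library held 17963766 reads on nuclear chromosomes and the STAT3 library 20784388, and counts were scaled by these to RPM. The identity of the cells could not be checked against marker expression, which these libraries do not measure.

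STAT5 and STAT3 are transcription factors that are phosphorylated by Janus kinases below cytokine receptors, STAT5 mainly after IL-2 and STAT3 mainly after IL-6, and then enter the nucleus and bind DNA. Pim1 encodes a serine/threonine kinase with roles in survival and growth, and is a long-known STAT target in blood cells. Ccnd2 and Ccnd3 encode cyclins D2 and D3, the regulatory subunits that activate Cdk4 and Cdk6, and Cdk6 encodes one of these kinases. Cyclin D kinases phosphorylate the retinoblastoma protein, which releases E2F factors and lets a T cell that has received growth signals enter S phase.

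The windows were rich in sites of both antibodies. Reads were counted in 200 bp windows moved by 50 bp, and a region was called where a window held at least 5 reads and was at least 4-fold over each of 3 background means (the genome, 5 kb and 10 kb around it), with an adjusted Poisson p of 1e-05 or below. Overlapping regions of the libraries were joined into sites. There were 12.0 sites per 100 kb over the 4 windows together, against 3.65 per 100 kb of the covered genome. Cdk6 had 23 sites, Ccnd3 21, Ccnd2 15 and Pim1 8, which is 9.20, 14.0, 15.0 and 13.3 sites per 100 kb. A region of both antibodies was present at 40 of the 67 sites (59.7%, against 47.7% of all sites), a STAT5 region alone at 15 (34.1% of all sites were of this kind) and a STAT3 region alone at 12 (18.2%). STAT5 regions, alone or shared, numbered 55 and STAT3 regions 52, and over the genome 81.8% of sites had a STAT5 region and 65.9% a STAT3 region. The sites were also taller than most: the median site in the windows had 76 STAT5 and 58 STAT3 reads in 200 bp, and the median over all sites was 31 STAT5 and 25 STAT3 reads. At 15 of the 67 sites there were 200 or more STAT5 reads, against 6.67% of all sites, and at 7 there were 200 or more STAT3 reads, against 2.07%.

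**Figure D1:**
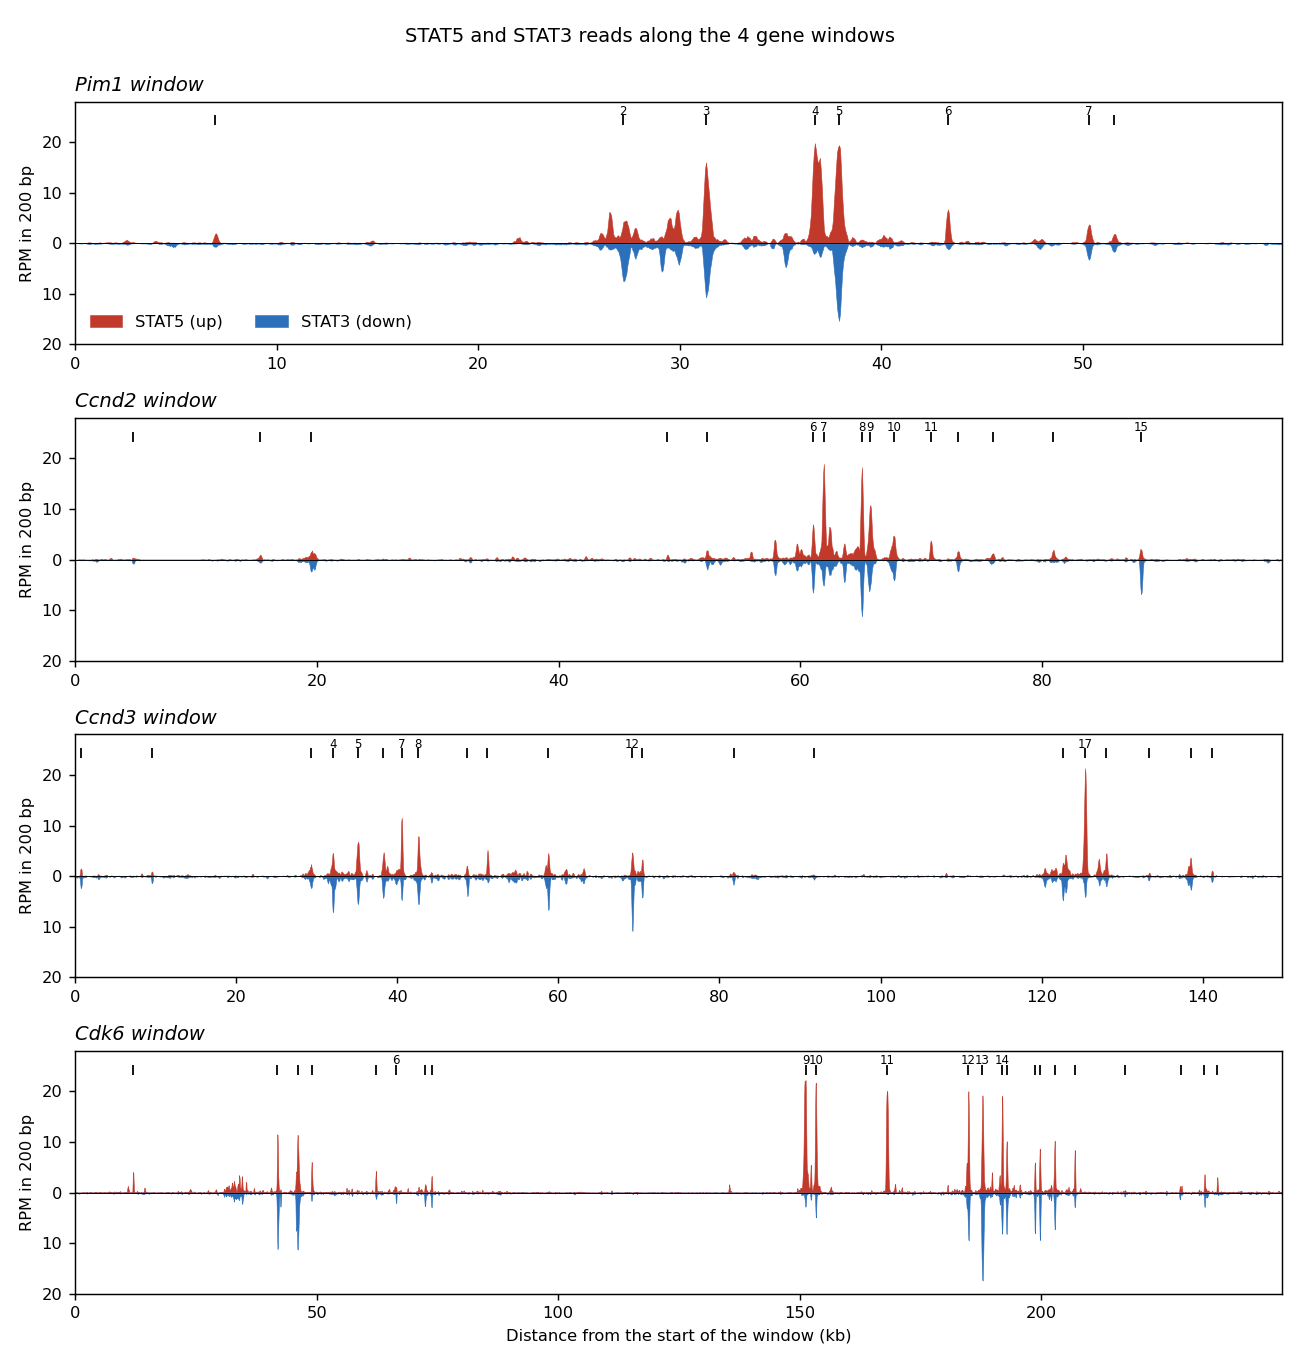
Scaled read counts (RPM) in windows of 200 bp along the 4 gene windows, with STAT5 drawn upward and STAT3 downward on the same scale; the horizontal axis is the distance in kb from the start of each window. Ticks above the traces mark the 67 sites, and numbers mark the named ones. STAT5 reached 22.2 RPM at Cdk6 site 9, where STAT3 had 2.79 RPM, while Cdk6 site 13 was tall on both sides of the axis.

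A site was called higher with one antibody when the interval of its STAT5/STAT3 ratio of RPM lay wholly beyond 2-fold. By this rule STAT5 was higher at 15 of the 67 sites and STAT3 at 1, while 27.7% of all sites were called higher with STAT5 and 3.18% with STAT3. The share called in these windows, 22.4% for STAT5 and 1.49% for STAT3, was thus not above the share over the genome. The STAT5-higher sites were 9 of the 23 at Cdk6, 2 of the 8 at Pim1, 2 of the 15 at Ccnd2 and 2 of the 21 at Ccnd3. The STAT3-higher site lay in the Ccnd2 window. The 15 sites with 200 or more STAT5 reads had between 5 and 361 STAT3 reads, and 7 of them were called higher with STAT5, against 69.3% of all sites of that height. No site of the 7 with 200 or more STAT3 reads was called higher with STAT3, against 17.4% of all such sites. The median ratio was 1.26 over the 67 sites and 1.35 over all sites.

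A read can occupy each position and strand once in the deposited files, so 200 bp hold at most 400 reads. Cdk6 site 9 held 399 STAT5 reads, and ratios at the tallest sites are compressed by this ceiling. Where a ratio is given corrected for positions already taken, each count was replaced by the number of reads that would fill as many of the 400 positions if reads fell on them evenly at random. The interval of a corrected ratio is the uncorrected interval moved by the same factor. It leaves out the error of the correction itself, which grows near the ceiling, and is therefore too narrow. No gene annotation of mm9 was used, so the sites are numbered along each window and given by position, without exon, intron or promoter. By gene order on GRCm38, Pim1 lies between the coding genes Fgd2 and Tmem217, Ccnd2 between Tigar and Parp11, Ccnd3 between Taf8 and Bysl, and Cdk6 between LOC545763 and Fam133b. Sites near the ends of a window may belong to these neighbours.

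STAT dimers recognise a short palindrome of the half-sites TTC and GAA, usually 3 bases apart. The RefSeq promoters of Pim1, Ccnd3 and Cdk6 (250 bases before to 50 after the gene start, GRCm38.p6) were searched on both strands for TTCNNNGAA and for the same half-sites with 4 bases between them, which read alike on either strand. None of the 5 promoters listed for these genes held either motif. Over all 32851 promoters 8.30% held the first and 6.95% the second. The promoter with most CG dinucleotides of each gene is shown here because it is the sequence in which no full palindrome was found, with every TTC and GAA half-site in capitals. Their position was not matched to mm9, so no site below is placed on them.
Pim1, GRCm38.p6 chr17:29490535-29490834, plus strand: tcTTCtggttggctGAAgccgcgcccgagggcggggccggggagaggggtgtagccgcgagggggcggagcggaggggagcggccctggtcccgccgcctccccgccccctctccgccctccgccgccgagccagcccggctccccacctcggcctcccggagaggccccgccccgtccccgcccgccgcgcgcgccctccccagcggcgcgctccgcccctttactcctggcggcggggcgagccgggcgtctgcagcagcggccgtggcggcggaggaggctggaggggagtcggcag
Ccnd3, GRCm38.p6 chr17:47593217-47593516, plus strand: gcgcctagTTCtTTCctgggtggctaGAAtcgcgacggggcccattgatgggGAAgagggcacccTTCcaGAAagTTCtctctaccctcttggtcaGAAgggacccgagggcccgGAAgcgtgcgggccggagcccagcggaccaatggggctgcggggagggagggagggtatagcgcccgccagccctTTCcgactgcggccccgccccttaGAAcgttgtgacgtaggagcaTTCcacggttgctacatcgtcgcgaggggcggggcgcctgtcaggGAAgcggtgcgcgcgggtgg
Cdk6, GRCm38.p6 chr5:3343643-3343942, plus strand: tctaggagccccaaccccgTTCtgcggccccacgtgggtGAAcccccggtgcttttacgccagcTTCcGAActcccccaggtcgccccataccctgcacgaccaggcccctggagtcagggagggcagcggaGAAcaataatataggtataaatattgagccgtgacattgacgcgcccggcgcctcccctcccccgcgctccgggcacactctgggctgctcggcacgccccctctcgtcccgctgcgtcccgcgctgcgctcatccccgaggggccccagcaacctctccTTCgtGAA
The Pim1 promoter is 81.3% G and C and held 2 half-sites, the Ccnd3 promoter 67.0% with 13, and the Cdk6 promoter 66.7% with 7.

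At Pim1, STAT5 and STAT3 met at a compact group of sites, with neighbouring sites of very different composition. The 20.0 kb from 29620000 to 29639999 held 83.3% of the STAT5 reads of the window (82.1 to 84.4%) and 77.5% of the STAT3 reads (76.0 to 78.9%). These limits were not planned, nor were those of the clusters and stretches given with shares or ratios below. They were drawn around the sites seen. Site 4, from 29636551 to 29637050, had 354 STAT5 and 41 STAT3 reads in 200 bp, which is 19.7 and 1.97 RPM and a ratio of 9.99 (7.22 to 14.2). Site 5, from 29637651 to 29638100 and with its centre 1200 bp further on, had 348 STAT5 and 317 STAT3 reads, 19.4 and 15.3 RPM, and a ratio of 1.27 (1.09 to 1.48). STAT3 thus differed widely between the pair, and site 4 had no STAT3 region. STAT5 filled 88.5% of the 400 positions at site 4 and 87.0% at site 5, where the ceiling draws counts together, so it cannot be read whether the STAT5 levels differed. Corrected for positions already taken, the ratio of site 4 was 23.1 (16.7 to 32.8). By STAT3 reads, site 5 ranked 242 of the 86149 sites.

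The third tall Pim1 site, from 29631101 to 29631550, had 288 STAT5 and 224 STAT3 reads and a ratio of 1.49 (1.24 to 1.78). Site 2, from 29627051 to 29627400, was the lowest in ratio: 76 STAT5 against 156 STAT3 reads, 0.564 (0.423 to 0.746). It had a STAT3 region only, although its STAT5 count was far above the genome-wide mean of 1.52 STAT5 reads per 200 bp. STAT5 was called higher again at site 6, from 29643101 to 29643500, with 120 STAT5 and 24 STAT3 reads (5.79, 3.71 to 9.38). Site 7, from 29650101 to 29650500, was level, with 67 STAT5 and 68 STAT3 reads and a ratio of 1.14 (0.801 to 1.62). The remaining sites, 1 and 8, had 34 and 33 STAT5 reads and 14 and 35 STAT3 reads.

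The 5 kb and 10 kb means include the neighbouring sites, and in so dense a stretch they left further piles of reads at Pim1 without a call. Windows of 200 bp that touched no site, with 50 or more reads of either antibody and at least 500 bp apart, numbered 7 at Pim1, 5 at Ccnd2, 2 at Ccnd3 and 9 at Cdk6. This count was made after the data were seen. At Pim1 the piles differed in composition within a few kb. The pile from 29626400 to 29626599 held 111 STAT5 and 26 STAT3 reads, a ratio of 4.94 (3.20 to 7.89). The one from 29629000 to 29629199 held 25 STAT5 and 117 STAT3 reads, a ratio of 0.247 (0.154 to 0.383), a lower ratio than at any called Pim1 site. Another, from 29635150 to 29635349, held 36 STAT5 and 99 STAT3 reads (0.421, 0.279 to 0.622).

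Ccnd2 had most of its STAT5 reads in a single cluster. The 10.0 kb from 127100000 to 127109999 held 60.5% of the STAT5 reads of the window (58.8 to 62.1%) and 47.8% of the STAT3 reads (46.1 to 49.6%), and 5 of the 15 sites. Site 7, from 127101751 to 127102100, was the tallest, with 340 STAT5 and 106 STAT3 reads, 18.9 and 5.10 RPM and a ratio of 3.71 (2.98 to 4.66). Site 8, from 127104901 to 127105250, had 326 STAT5 and 234 STAT3 reads (1.61, 1.36 to 1.91). The STAT3 level was more than 2 times as high at site 8 as at site 7. STAT5 filled 85.0% of the positions at site 7 and 81.5% at site 8, too near the ceiling for their STAT5 levels to be compared. Corrected for positions already taken, the ratio of site 7 was 7.13 (5.72 to 8.95). Site 9, from 127105701 to 127105900, had 194 STAT5 and 104 STAT3 reads, and its interval of 1.69 to 2.77 reached below 2-fold. Sites 6 and 10, from 127100951 to 127101150 and from 127107651 to 127107850, were level, with 126 and 84 STAT5 and 135 and 85 STAT3 reads. Both had a STAT3 region only.

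The Ccnd2 window also held the lowest and one of the highest ratios among the 67 sites. At site 11, from 127110651 to 127111000, STAT5 had 68 reads and STAT3 had 0. Set against the floor of 3 reads per library the STAT5 level was 26.2-fold higher, while the exact interval, which also covers the counting error of the STAT5 reads, allows ratios down to 20.8. At site 15, from 127128001 to 127128450, STAT5 had 35 and STAT3 142 reads, 1.95 and 6.83 RPM, a ratio of 0.285 (0.191 to 0.415). This was the STAT3-higher site by RPM. Scaled by the reads in 10 kb bins without a region its ratio was 0.395 (0.264 to 0.575), which reached above 0.5, and it was not called. Of the other 8 Ccnd2 sites none was called higher with either antibody, and they had 7 to 36 STAT5 and 5 to 49 STAT3 reads.

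**Figure D2:**
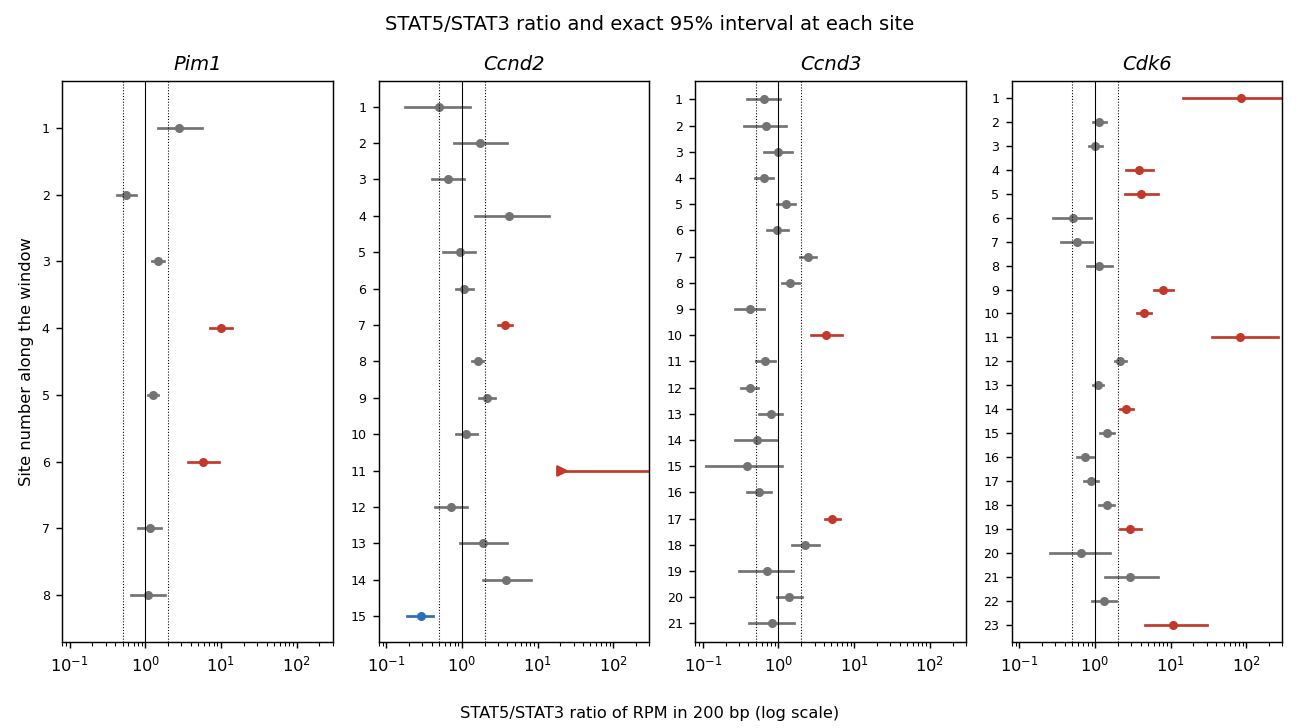
STAT5/STAT3 ratio of RPM in 200 bp at each of the 67 sites on a log axis, by gene and in order along each window; points are ratios and lines exact 95% intervals, which end at the edge of the plot where they run beyond it. Red marks STAT5-higher, blue STAT3-higher and grey uncalled sites, dotted lines mark 2-fold, and the triangle starts at the lower bound of Ccnd2 site 11, which had 0 STAT3 reads. Red are 9 of the 23 Cdk6 sites, 2 of the 8 at Pim1, 2 of the 15 at Ccnd2 and 2 of the 21 at Ccnd3, against 27.7% of all sites over the genome.

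At Ccnd3 the side on which most sites lay depended on the scaling, and 1 tall STAT5 site stood apart from the rest. By RPM the ratio was above 1 at 7 of the 21 sites, against 60.4% of all sites over the genome, and scaled by the reads in 10 kb bins without a region it was above 1 at 11, against 73.0% of all sites. The interval by RPM lay wholly above 1 at 5 sites and wholly below 1 at 6, and by the bins at 7 and 2. The window began with a series of mostly shared sites over 100.0 kb, from 47610000 to 47709999. This stretch held 63.4% of the STAT5 reads of the window (62.1 to 64.8%) and 75.8% of its STAT3 reads (74.6 to 76.9%). The tallest STAT3 site of Ccnd3 was site 12, from 47678951 to 47679400, with 81 STAT5 and 224 STAT3 reads, 4.51 and 10.8 RPM, and a ratio of 0.418 (0.320 to 0.542). That interval reached above 0.5, so the site was not called. Site 4, from 47641801 to 47642200, had 83 STAT5 and 149 STAT3 reads (0.645, 0.487 to 0.849).

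STAT5 led at other sites of the same stretch. Site 7, from 47650351 to 47650700, had 208 STAT5 and 99 STAT3 reads and a ratio of 2.43 (1.90 to 3.12). It had a STAT5 region only. Site 8, from 47652451 to 47652800, had 142 STAT5 and 115 STAT3 reads (1.43, 1.11 to 1.84). At site 5, from 47644851 to 47645350, the interval included 1, with 121 STAT5 and 111 STAT3 reads (1.26, 0.967 to 1.65). The STAT5 site that stood apart was site 17, from 47735151 to 47735650, with 384 STAT5 and 86 STAT3 reads, 21.4 and 4.14 RPM and a ratio of 5.17 (4.08 to 6.61), or 15.4 (12.1 to 19.7) corrected for positions already taken. By STAT5 reads it ranked 273 of the 86149 sites, with 96% of the 400 positions filled. A stretch of 30.6 kb without a site, from 47701851 to 47732450, separated it and its neighbours from the first series. The other 15 Ccnd3 sites had 5 to 91 STAT5 and 15 to 139 STAT3 reads, and 1 of them, site 10, was called higher with STAT5 (91 STAT5 and 25 STAT3 reads).

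Sites 9 and 10 of Cdk6 had the most STAT5 reads in 200 bp among the sites of the 4 genes. They lay in a stretch where STAT3 was well below STAT5. Both of these sites had a region of each antibody, while site 11 in the same stretch had a STAT5 region only. Site 9, from 3460801 to 3461350, had 399 STAT5 and 58 STAT3 reads, 22.2 and 2.79 RPM, and a ratio of 7.96 (6.03 to 10.7). Corrected for positions already taken, this ratio was 44.3 (33.5 to 59.3). With 399 STAT5 reads under a ceiling of 400, the corrected value is poorly fixed and its interval far too narrow. Site 10, from 3463101 to 3463500, had 390 STAT5 and 102 STAT3 reads (4.42, 3.55 to 5.56). Site 11, from 3477701 to 3478400, had 360 STAT5 and 5 STAT3 reads, 20.0 and 0.241 RPM, and a ratio of 83.3 (35.4 to 258). By STAT5 reads sites 9, 10 and 11 ranked 25, 166 and 731 of the 86149 sites. So near the ceiling their order by STAT5 is not fixed. In 400 bp, sites 9, 10 and 11 had 682, 615 and 650 STAT5 reads. By STAT3 reads they ranked 18596, 7652 and 71791.

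These sites formed a STAT5-rich stretch of 20.0 kb, from 3460000 to 3479999. It held 30.2% of the STAT5 reads of the Cdk6 window (29.3 to 31.0%) and 6.27% of the STAT3 reads (5.73 to 6.83%), a ratio of 8.04 (7.30 to 8.87). The rest of the window had a ratio of 1.24 (1.20 to 1.28). The limits of this stretch were set after the data were seen. Before it, from 3384001 to 3460800, lay 76.8 kb without a site, the longest such stretch in the 4 windows.

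The next Cdk6 cluster was tall with both antibodies. The 30.0 kb from 3490000 to 3519999 held 36.3% of the STAT5 reads (35.4 to 37.2%) and 45.7% of the STAT3 reads (44.6 to 46.8%) of the window. Site 13, from 3497501 to 3498100, had 345 STAT5 and 361 STAT3 reads, 19.2 and 17.4 RPM, and a ratio of 1.11 (0.951 to 1.29). By STAT3 reads it ranked 63 of the 86149 sites, with 90.25% of the 400 positions filled. It was the tallest STAT3 site of the 4 genes. On either side of it the ratio was higher. Site 12, from 3494651 to 3495150, had 361 STAT5 and 193 STAT3 reads (2.16, 1.81 to 2.59), and site 14, from 3501651 to 3502100, had 343 STAT5 and 154 STAT3 reads (2.58, 2.12 to 3.14). Of these 3 sites only the last was called higher with STAT5.

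A smaller shared cluster lay near the start of the Cdk6 window, where the 20.0 kb from 3340000 to 3359999 had a ratio of 1.10 (1.03 to 1.18). Among the called Cdk6 sites the lowest ratio was that of site 6, from 3376251 to 3376600, with 19 STAT5 and 43 STAT3 reads (0.511, 0.281 to 0.896). A pile outside the sites, from 3352400 to 3352599, was lower, with 12 STAT5 and 58 STAT3 reads (0.239, 0.117 to 0.451). The other 16 Cdk6 sites had 9 to 208 STAT5 and 1 to 234 STAT3 reads, and 5 of them were called higher with STAT5. These were sites 1, 4, 5, 19 and 23, named here after their values were seen.

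**Figure D3:**
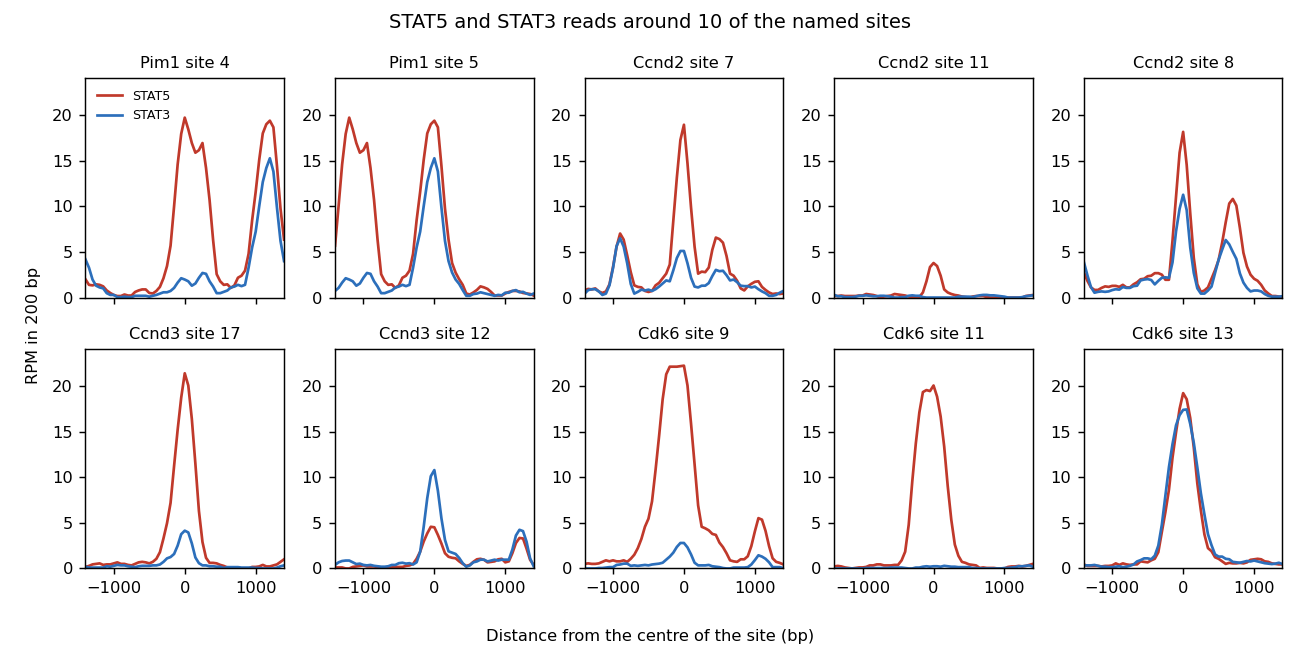
Scaled read counts (RPM) in 200 bp windows around 10 of the named sites (in each gene the tallest by STAT5, the highest in ratio and the tallest by STAT3), against the distance in bp from the centre of the site, with STAT5 in red and STAT3 in blue on 1 vertical scale. The flat top of STAT5 at Cdk6 site 9 lies near the ceiling of 400 reads in 200 bp. Cdk6 site 13 and Pim1 site 5 are tall with both antibodies, whereas Cdk6 site 11 and Ccnd2 site 11 have almost no STAT3 reads.

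Gene by gene, the balance of the antibodies over the whole window was ordered Cdk6, Pim1, Ccnd2, Ccnd3. The Cdk6 window had 11007 STAT5 and 7629 STAT3 reads, a ratio of RPM of 1.67 (1.62 to 1.72). The Pim1 window had 4170 STAT5 and 3183 STAT3 reads and a ratio of 1.52 (1.45 to 1.59), and the Ccnd2 window 3555 STAT5 and 3219 STAT3 reads and a ratio of 1.28 (1.22 to 1.34). The Ccnd3 window had 4945 STAT5 and 5394 STAT3 reads and a ratio of 1.06 (1.02 to 1.10). Scaled to a median of 1 at shared sites, its ratio was 0.987, with an interval of 0.949 to 1.03 that included 1. No intervals of neighbours in this order overlapped, so the steps exceed counting error, and whether they exceed the error between libraries was not tested. Within called sites only, the Pim1 ratio was 1.92 (1.79 to 2.05) and the Cdk6 ratio 1.89 (1.82 to 1.97). These intervals overlapped, and the ratios of Ccnd2, 1.56 (1.45 to 1.69), and Ccnd3, 1.29 (1.21 to 1.37), were lower.

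These window ratios rested on few sites. Without the reads of its tallest site, a recalculation chosen after the data were seen, the ratio was 1.54 (1.49 to 1.58) at Cdk6, 1.28 (1.22 to 1.34) at Pim1, 1.18 (1.12 to 1.24) at Ccnd2 and 0.952 (0.914 to 0.991) at Ccnd3. At Ccnd2 the reads outside the 10.0 kb cluster gave 0.968 (0.901 to 1.04). At Cdk6 the reads outside the 20.0 kb STAT5-rich stretch gave 1.24 (1.20 to 1.28), which is below the ratio of the whole Pim1 window. The reads of Pim1 outside its own central 20.0 kb gave 1.12 (1.01 to 1.25), an interval that overlaps this. The place of Cdk6 before Pim1 thus depended on that stretch. Reads outside all sites gave 1.42 (1.36 to 1.49) at Cdk6, 1.22 (1.14 to 1.30) at Pim1, 1.12 (1.05 to 1.19) at Ccnd2 and 0.918 (0.872 to 0.967) at Ccnd3, which is the same order of genes as over the whole windows. These reads include the uncalled piles described above, some of them 2 bp from a called site, so they are not background alone.

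Read density also differed between the genes. Pim1 was the densest window, with 69.5 STAT5 and 53.0 STAT3 reads per kb, which is 9.13 and 6.02 times the genome-wide densities of 7.61 and 8.81. Cdk6 had 44.0 STAT5 and 30.5 STAT3 reads per kb, Ccnd2 35.5 and 32.2, and Ccnd3 33.0 and 36.0. Densities depend on where the windows were drawn. Sites took 59.2% of the STAT5 reads at Cdk6 (58.3 to 60.1%) and 52.2% of the STAT3 reads (51.1 to 53.3%). At Ccnd2 they took 43.7% of the STAT5 reads (42.1 to 45.4%) and 35.8% of the STAT3 reads (34.1 to 37.5%).

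Where both antibodies had a region, they piled up at nearly the same place. The summits of STAT5 and STAT3 differed by 50 bp or less, 1 step of the moving window, at 39 of the 40 shared sites (97.5%), against 85.5% of shared sites over the genome. The exception was Cdk6 site 21, where they lay 350 bp apart, and which had 25 STAT5 and 10 STAT3 reads around its centre. The share over the genome was not matched for height, and the sites in these windows were taller than most. Whether the closer summits go beyond this was not tested. Most sites with a region of 1 antibody held more reads of the other than the genome-wide mean, but some held few or none. The 15 STAT5-only sites had a median of 14 STAT3 reads (0 to 106), against a genome-wide mean of 1.76 STAT3 reads per 200 bp. Among them, Ccnd2 sites 4 and 11 had 5 and 0 STAT3 reads, and Cdk6 sites 1, 11 and 23 had 1, 5 and 6. That mean understates the local level: outside sites the windows held 15.2 (Cdk6) to 32.3 (Pim1) STAT3 reads per kb, against 8.81 over the genome. The 12 STAT3-only sites had a median of 38 STAT5 reads (5 to 126). A region of STAT3 alone did not always mean a lower STAT5 level. Ccnd3 site 18, of this kind, had 78 STAT5 and 40 STAT3 reads and a ratio of 2.26 (1.52 to 3.39).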

How the data were processed

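Aligned reads of 1 STAT5 and 1 STAT3 library were analysed. The deposited files list 1 read per line with chromosome, start, end, match descriptor, score and strand; the submitters' processing notes name mm9 as the build. The aligner and filters were not given in the sources used here. Each read was 25 nt long, the deposited score was 0 throughout and was not used, and no position and strand held more than 1 read. Formaldehyde was at 1%, libraries had 18 amplification cycles and fragments of about 250 bp with adapters, per the labels' protocols.

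Read 5′ ends were moved 50 bp in the 3′ direction and counted in windows of 200 bp, step 50 bp, with Python 3.11.15, numpy 2.4.6, scipy 1.17.1 and pandas 2.3.3. Region calls were made over the whole genome, with Benjamini-Hochberg adjustment over all windows with a read. Called windows within 100 bp were joined, and regions with over 80% of summit reads on 1 strand were left out. Ratios used 200 bp at the site centre, scaled by nuclear reads, with exact conditional (Clopper-Pearson) intervals; a count of 0 was given a floor of 3 reads. Shares of reads have exact binomial intervals. No p-value was computed between the libraries. The caller was tested on simulated reads with isolated sites on an even background. That test does not cover sites as close together as those in these windows. Named sites were the 6 tallest of each window and those with the highest and lowest ratio by the bound nearest to 1. Genes, windows and rules were chosen with earlier results of these data known. Other cell cycle genes were not analysed, since no annotation of mm9 was used and coordinates were not converted between builds. Figures were drawn with matplotlib 3.10.9.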

Additional observations from a re-analysis of the deposited data

How the results depend on the processing

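The number of regions moved with the calling rule. The ratio of the tallest site stayed above 1 in each window under all planned changes. The tallest site was picked by the higher RPM of either library, which was STAT5 in all 4 windows. A ratio above 1 by RPM was thus fixed by the choice, and is no check of the result. Requiring 8-fold in place of 4-fold left 20 STAT5 and 16 STAT3 regions, 6 sites with both and 9 STAT5-higher sites, and the genome-wide mean alone gave 109 STAT5 and 85 STAT3 regions and 68 sites with both. STAT3-higher sites numbered 0 when scaled by 10 kb bins without a region, 3 with an interval beyond 1.5-fold and 2 after correction for positions already taken. STAT5-higher sites numbered 22, 20 and 17 under the same changes, against 15 by the main rule. Shares over all sites of the genome under changed calling rules are not given here, so these counts have no background. Scaling by 10 kb bins without a region raises every ratio by a factor of 1.38. It put the window ratios at 2.31 for Cdk6, 2.10 for Pim1, 1.77 for Ccnd2 and 1.47 for Ccnd3, and the tallest sites of Cdk6, Ccnd2 and Ccnd3 at 11.0, 5.13 and 7.15. Scaling to a median of 1 at shared sites gave 1.55 for Cdk6, 1.41 for Pim1, 1.19 for Ccnd2 and 0.987 for Ccnd3. The interval of the last, 0.949 to 1.03, included 1. Reads outside sites gave 1.42, 1.22, 1.12 and 0.918 for the same genes in that order, and leaving out the tallest site, chosen after the data were seen, 1.54, 1.28, 1.18 and 0.952. Correction for positions already taken raised the tallest sites to 44.3 at Cdk6, 23.1 at Pim1, 15.4 at Ccnd3 and 7.13 at Ccnd2. Beyond what each threshold or scaling fixes, the cause was not tested. No paired analysis was possible because there was 1 library per antibody.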
